A study of Mus musculus with 10 samples.

Results

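Integrin subunits are described here in an epithelial mouse mammary tumour cell line, called E, and in 4 mesenchymal lines, M1, M2, M3 and M4, each grown out of a relapsed tumour that followed an injection of E cells. The 10 subunit genes are Itga2, Itga3, Itga5, Itga6, Itgav, Itgb1, Itgb2, Itgb3, Itgb4 and Itgb6, out of 18193 genes that the array's annotation names. They were taken by symbol, as the probe sets annotated with that gene alone. There were 27 such probe sets among 45101 on the array, and 23 of them passed the filter on low signals. All 10 genes had at least 1 probe set past the filter and were tested, among 14840 genes in all.

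An integrin is a receptor of 1 alpha and 1 beta subunit that spans the cell membrane, binds matrix proteins or other cells outside, and is tied to the cytoskeleton inside. The pairing sets the ligand: Itga3 and Itga6 form laminin receptors, Itga2 a collagen receptor, Itga5 the classical fibronectin receptor, and Itgav and its beta partners bind proteins with the Arg-Gly-Asp (RGD) motif. In mammary epithelium Itga6 with Itgb4 sits in hemidesmosomes, the junctions that anchor keratin filaments to the basement membrane. Itgb2 is the beta subunit of leukocyte integrins.

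Line E was derived from a mammary adenocarcinoma of a female FVB/N-TgN(MMTVneu)202Mul mouse, in which the mouse mammary tumour virus promoter drives the neu oncogene in mammary epithelium. The M lines came from relapsed tumours in female FVB/N mice, so E-derived cells and host cells could both have been in the tumours. Each line was 1 sample of its kind, grown in RPMI with serum to near confluence and hybridized on 2 arrays, and there were no other treatments. The sources used here do not say whether both arrays of a line had their own culture, so the p-values measure only the spread between these arrays, which may be technical. Because E was the 1 epithelial line, variation between epithelial lines was not measured.

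Both arrays of each line had correlations of 0.993 to 0.994 over the probe sets, but overall brightness differed: trimmed means were highest for E replicate 1 (299) and lowest for M4 replicate 1 (181). The median gene was 0.21 lower in the M lines than in E on the log2 scale as deposited, and 0.04 higher after quantile normalization. In the mean of the 4 M lines all 7 epithelial markers checked were called lower than in E, as were 14.5% of all genes. Of 7 mesenchymal markers 6 were called higher, as were 7.34% of all genes. These markers were picked after their values were seen, so the counts only describe the lines. The keratin Krt8 was not lower in M2, at 8738 and 7155 against 8477 and 7441 in E. Changes below are differences of log2(signal + 32). A gene is said to have risen or fallen where limma's Benjamini-Hochberg adjusted p, taken over all 14840 genes, was under 0.05 and the change was at least 2-fold. RNA from fewer cells of a type and less RNA per cell cannot be told apart in such data, and levels of different probe sets were not compared.

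The first question was which subunits differed between the relapsed mesenchymal lines, as a mean of the 4, and the epithelial line. Itga5 and Itgb2 rose, Itga3, Itga6 and Itgb3 fell, and 5 subunits were not called. Itga5 rose by 3.27 ± 0.13 (SE; adjusted p = 1.17e-26) and Itgb2 by 2.46 ± 0.14 (1.87e-21). Itgb3 changed by -2.25 ± 0.16 (2.84e-17), Itga3 by -1.34 ± 0.13 (2.77e-13) and Itga6 by -1.01 ± 0.11 (1.02e-10). Of all genes tested, 7.34% rose and 14.5% fell in this comparison, 21.8% together. After quantile normalization 1432 genes rose and 1310 fell, against 1089 and 2148 on the deposited scale, and Itgb3 was the 1 subunit called lower. The median change of the 10 subunits was -0.80, and that of all genes -0.21. The arrays of E and of the M lines did not overlap for 7 of the 10 subunits, as for 41.7% of all genes.

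**Figure D1:**
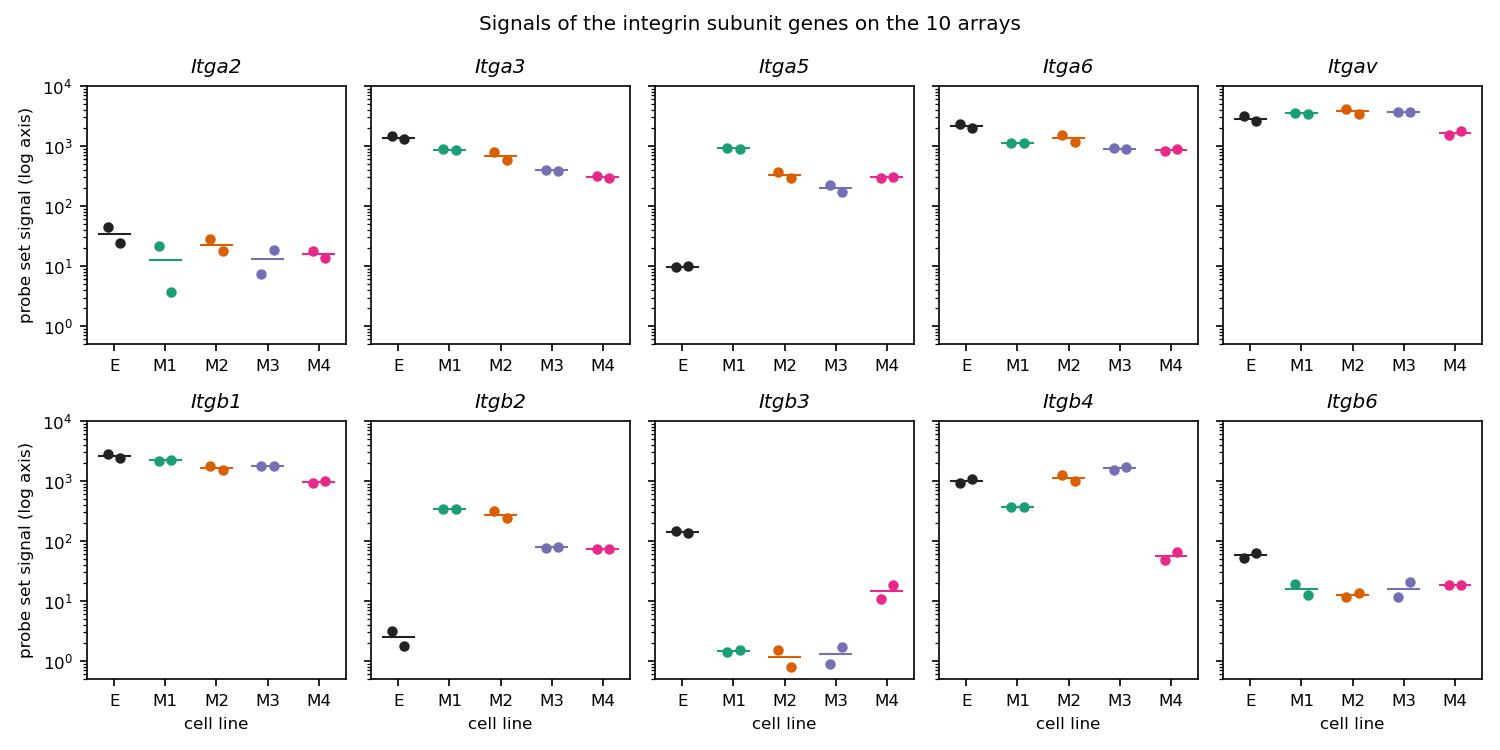
Probe set signal (log axis) of each of the 10 integrin subunit genes on every array, by cell line; each point is 1 array, each line has 2, and horizontal bars are line means. Itga5 and Itgb2 lie below 10 in E and above 70 in every M line, and Itgb3 is higher on both E arrays than on any M array.

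Itga5, the alpha subunit of the fibronectin receptor, was at 9.7 and 9.9 on the E arrays. Its signals were 918 and 909.9 in M1, 369 and 294 in M2, 228 and 174 in M3, and 298 and 306 in M4. Every M array was thus far above both E arrays, and M1 stood above the other M lines. Against E the gene rose by 4.50, 3.11, 2.47 and 3.00 in M1, M2, M3 and M4, each with an SE of 0.17. M1 exceeded M2 by 1.39, M3 by 2.03 and M4 by 1.50, all called, and M2, M3 and M4 were not called apart from each other. Because the E signals are near background, the size of the change depends on the pseudocount: the mean change was 4.40 with a pseudocount of 8 and 1.89 with one 4-fold larger than 32. It was called under every alternative tried, and was smallest, at 1.75, as the mean of its probe sets. On 5 line means, with each line counted once, the adjusted p by limma was 0.0315.

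RefSeq's table of the 250 bases before its listed starts (build GRCm38.p6) held 8 windows for 6 of the 10 genes. The window of Itga5 and 1 of the 2 windows of Itga3, matrix receptor genes that moved in opposite directions, are shown 5′ to 3′ on the gene's strand. Capitals mark GGGCGG, the GC box, or CAGGTG, the E-box bound by repressors of epithelial genes, each searched on both strands. The windows are chr15:103366792-103367041 (minus strand) for Itga5 and chr11:95076715-95076964 (minus strand) for Itga3. The annotated Itga5 gene begins at 103366791, next to its window. The annotated Itga3 gene begins at 95076844, so part of the window shown lies inside it, and the other Itga3 window lies wholly inside it.
Itga5: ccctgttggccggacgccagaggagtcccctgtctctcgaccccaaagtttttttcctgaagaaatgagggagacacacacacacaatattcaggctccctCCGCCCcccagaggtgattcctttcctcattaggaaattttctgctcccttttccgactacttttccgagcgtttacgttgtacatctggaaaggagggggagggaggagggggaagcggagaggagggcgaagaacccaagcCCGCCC
Itga3: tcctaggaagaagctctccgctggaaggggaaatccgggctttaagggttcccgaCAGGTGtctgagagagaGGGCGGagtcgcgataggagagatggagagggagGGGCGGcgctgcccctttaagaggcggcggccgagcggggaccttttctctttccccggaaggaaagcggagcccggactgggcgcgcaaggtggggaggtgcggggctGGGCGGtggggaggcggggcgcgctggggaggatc
The Itga5 window held 2 GC boxes and no CAGGTG, and the Itga3 window shown 3 GC boxes and 1 CAGGTG. The other Itga3 window, chr11:95069199-95069448, held 1 GC box and no CAGGTG, with a GC content of 50.8%. A GC box was found in 32.7% and CAGGTG in 17.2% of the 32851 windows of this length. The AP-1 motif TGANTCA, in 6.75% of windows, was in none of these 3 windows. For the other subunits, 1 of the 2 windows of Itgb6 held CAGGTG, and the windows of Itga2, Itgav and Itgb1 did not. The GC content of the windows shown was 55.6% for Itga5 and 67.6% for Itga3, beside a median of 52.4% over all windows. A match describes the letters and was not tested as a binding site.

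Itgb3, which pairs with Itgav to form a receptor for vitronectin and other RGD proteins, had the reverse pattern. Its signals were 147 and 133 in E, 1.4 and 1.5 in M1, 1.5 and 0.8 in M2, 0.9 and 1.7 in M3, and 10.8 and 18.3 in M4. Both E arrays lay above every M array, and M4 was the highest of the M lines. Its changes were -2.36, -2.38, -2.37 and -1.89 in M1, M2, M3 and M4, all of them falls, and the F test across the M lines did not call it (adjusted p = 0.0795). With the larger pseudocount the M4 change was -0.91 and not called. With a pseudocount of 8 the M lines were called apart, with M4 above M2 by 1.28 on that scale. On 5 line means the adjusted p by limma was 0.00105. Itga5 and Itgb3 were the 2 subunits called in the mean comparison that also had an adjusted p under 0.05 on line means, a combination met by 10.6% of all genes.

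Itgav itself, the alpha partner, had high signals in all lines: 3121 and 2574 in E, 3558 and 3421 in M1, 4219 and 3443 in M2, 3659 and 3687 in M3, and 1529.6 and 1812 in M4. M4 was below all other lines, while M1, M2 and M3 lay around or above E. The mean change of 0.08 ± 0.10 did not pass the test (adjusted p = 0.477), nor was any single line called against E. M4 was lower than M1 by 1.05, M2 by 1.18 and M3 by 1.13, and the F test called the spread (adjusted p = 3.7e-12). All were under 2-fold after quantile normalization, with a range of 0.96 across the M lines, after scaling to the hybridization controls, at 0.98, and as means of the probe sets, at 0.84. The difference from M1 was also not called without M4 replicate 1 (0.93).

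Itgb6, which with Itgav forms the epithelial receptor that activates latent TGF-beta, was low everywhere. Its signals were 51.3 and 63.3 in E and 11.6 to 20.4 on the 8 M arrays, with no overlap. The change of -0.90 ± 0.16 had an adjusted p of 2.58e-06 but was under 2-fold, and the changes in M1 to M4 were -0.90, -0.997, -0.90 and -0.81, not called apart by the F test (adjusted p = 0.88). With a pseudocount of 8 it was called, at -1.46. In M2, whose change lay at the 2-fold limit, it was called without E replicate 1 (-1.09) or M2 replicate 2 (-1.03), and in M3 without M3 replicate 2 (-1.03).

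Among the laminin receptor genes, Itga3 was at 1444 and 1289.6 in E, 877 and 852 in M1, 796 and 585 in M2, 406 and 384 in M3, and 314 and 296 in M4. No M array reached the E arrays, and M3 and M4 were lower than M1 and M2. It fell in M3 (-1.71) and M4 (-2.05), and its changes of -0.64 in M1 and -0.97 in M2 were under 2-fold. In M2 it was called without E replicate 2 (-1.05) or M2 replicate 1 (-1.18). Between M lines, M1 exceeded M3 by 1.07 and M4 by 1.41, and M2 exceeded M4 by 1.09, the last not called without M2 replicate 1 (0.87). The difference of M1 from M3 and that of M2 from M4 were under 2-fold under each other scaling, at 0.73 to 0.98 and 0.71 to 0.98, and with the larger pseudocount (0.92 and 0.91). After quantile normalization the mean change was -0.98 and the range across M lines 0.99, both just under 2-fold.

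Itga6, the alpha subunit shared by the hemidesmosome and other laminin receptors, was at 2294 and 1980.5 in E. It was at 1136 and 1127 in M1, 1526 and 1147 in M2, 932 and 886 in M3, and 837 and 901 in M4. All M arrays were below E, with a narrower spread among the M lines than for Itga3. It fell in M3 (-1.20) and M4 (-1.26) and changed by -0.89 in M1 and -0.67 in M2, under 2-fold. The mean change of -1.01 lay at the 2-fold limit: it was -0.69 after quantile normalization, -0.83 after median centring and -0.66 after scaling to the hybridization controls, none called. Leaving out E replicate 1 gave -0.90, M2 replicate 2 -0.96, and M4 replicate 1 -0.996, again not called, as were -0.94 without line M3 and -0.92 without line M4. After quantile normalization the M3 and M4 changes were -0.75 and -0.72, not called. On 5 line means limma's adjusted p was 0.141 for Itga6 and 0.212 for Itga3.

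Itgb4, the hemidesmosome beta subunit, which pairs with Itga6 alone, had the widest range among the M lines of the 10 subunits. Its signals were 906 and 1058 in E, 373 and 368 in M1, 1235 and 994 in M2, 1544 and 1700.2 in M3, and 47.2 and 65.6 in M4. M3 was above E on both arrays, M2 overlapped E, M1 was below, and M4 was lowest by far. Against E it fell in M4, with a change of -3.52 (SE 0.16; limma adjusted p = 1.98e-24), and in M1, with -1.33 (9.27e-10). In M2 it differed by 0.17 (0.397), and in M3 by 0.71 (0.000173), under 2-fold. M3 exceeded M4 by 4.23, or 18.8-fold, M2 exceeded M4 by 3.70, and M1 exceeded M4 by 2.19. M1 was lower than M2 by 1.50 and than M3 by 2.04. The F test across the M lines gave an adjusted p of 4.38e-27.

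The M3 value of Itgb4 turned on the array scale, since it was called higher than E after quantile normalization (1.21) and after scaling to the hybridization controls (1.13). The mean over the 4 lines, -0.99 ± 0.13, sat at the 2-fold limit and describes no single line. It was -1.10 without E replicate 1, -1.03 without either M2 replicate 1 or M4 replicate 2, and -1.01 without M3 replicate 2, and was called in these cases. It was -1.38 without line M2 and -1.56 without line M3, both called, but -0.88 without line M1 and -0.15 (limma adjusted p = 0.368) without line M4, neither called. The summed signal of 7 epithelial markers was 648 and 655 on the M1 arrays, between 7225 and 8809 in M2, between 5578 and 5679 in M3, and 4534 and 4587 in M4. Krt8 made up nearly all of it in M2, M3 and M4, with 4521 and 4554 in M4, and Krt18 most of it in M1, with 542.5 and 554.5. Epcam, Cldn3, Cldn7 and Esrp1 did not exceed 21.9 on any M array. Cdh1 had means of 16.5, 41.7, 71.35 and 5.45 in M1, M2, M3 and M4, against 3501 in E. Its order among the M lines was that of Itgb4, while Krt8 was highest in M2 and lowest in M1. Their part in the Itgb4 differences was not tested.

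**Figure D2:**
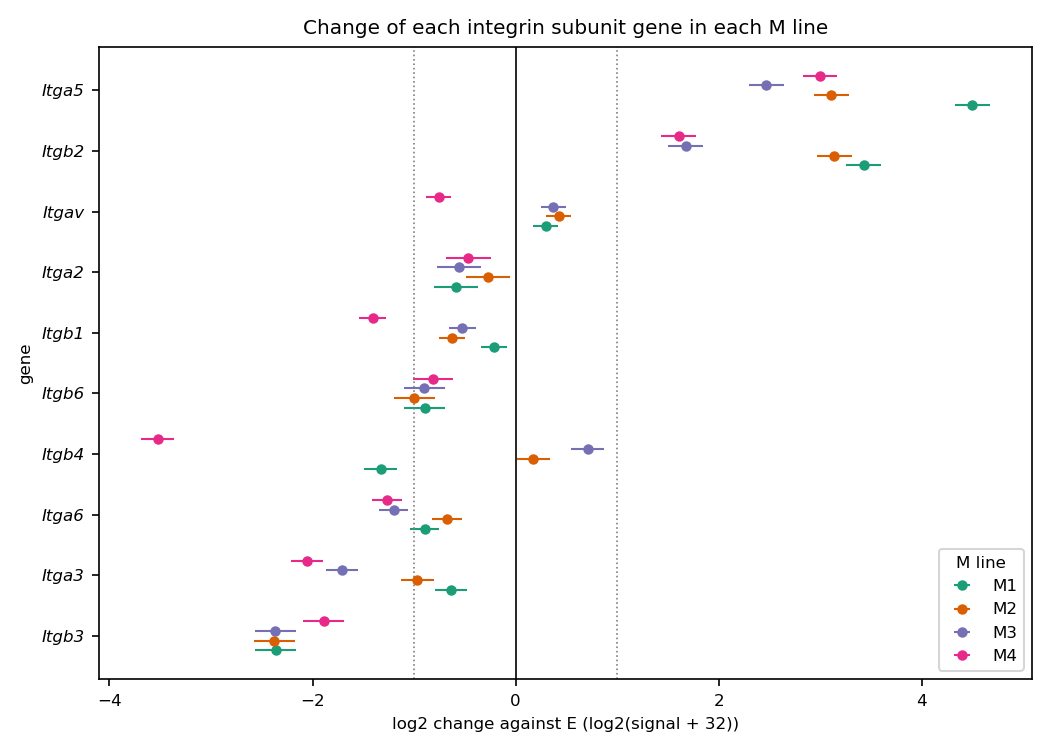
Log2 change against E of each subunit gene (rows) in each M line (colours), with the standard error as bars and dotted lines at 2-fold. Itga5 and Itgb2 lie right of the 2-fold line and Itgb3 left of it in all 4 lines, while the Itgb4 points run from -3.52 in M4 to 0.71 in M3.

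Itgb1, the beta subunit common to the laminin, collagen and fibronectin receptors, was at 2752 and 2380.5 in E, 2182 and 2229 in M1, 1794 and 1510.1 in M2, 1777 and 1767 in M3, and 909.5 and 982 in M4. The M arrays were all below E, most in M4. The mean change of -0.69 ± 0.10 (adjusted p = 1.13e-07) was under 2-fold, and it fell in M4 alone of the 4 lines, by 1.41. M1 exceeded M4 by 1.20, the 1 pair of M lines called. The M4 change was -0.84 after quantile normalization and after scaling to the hybridization controls, neither called. It was -0.91 as the mean of its probe sets, also not called, but that mean included probe sets that did not exceed 27.1 on any array. The other, brighter probe sets of Itgb1 were also called lower in M4 on the deposited scale, with changes of -1.75 and -1.19.

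**Figure D3:**
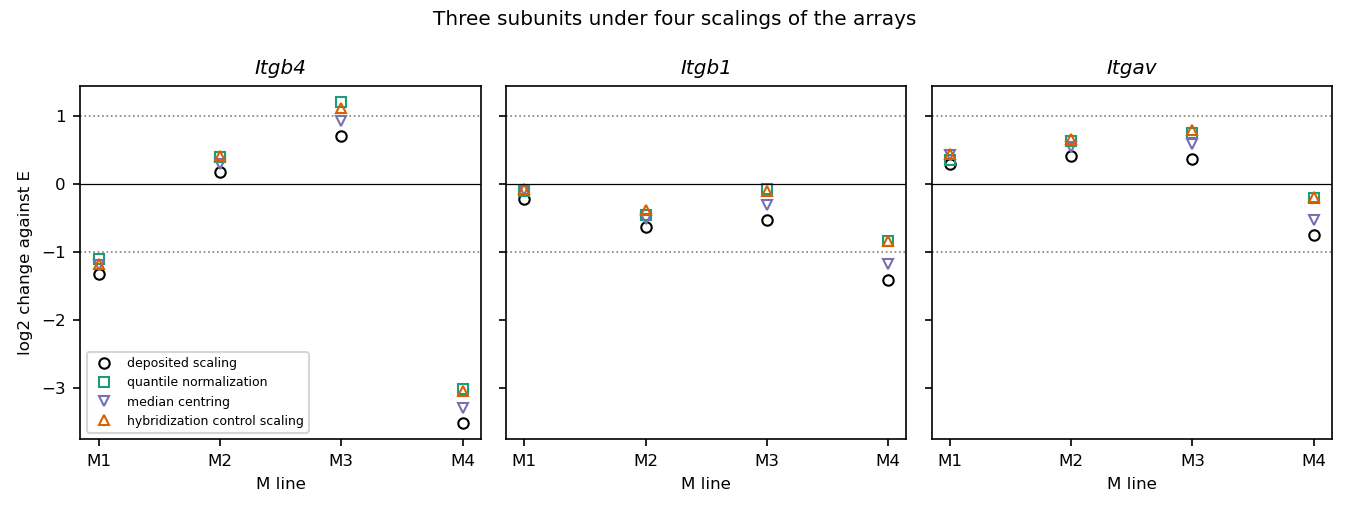
Log2 change against E of Itgb4, Itgb1 and Itgav in each M line under 4 scalings of the arrays (symbols), with dotted lines at 2-fold. The order of the lines for Itgb4 was kept, while the M4 value of Itgb1 moved from -1.41 as deposited to -0.84 after quantile normalization and crossed the 2-fold line.

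Itga2, the alpha subunit of a collagen and laminin receptor of epithelia and platelets, was low on every array. It read 44.5 and 24.6 in E, 21.9 and 3.7 in M1, 27.8 and 17.6 in M2, 7.4 and 18.8 in M3, and 17.8 and 13.6 in M4. The E and M arrays overlapped, and the M1 replicates alone spanned most of the range of the M arrays. Its change of -0.47 ± 0.17 (adjusted p = 0.0169) was under 2-fold and no line was called.

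Itgb2 was at 3.2 and 1.8 in E, 345 and 335 in M1, 309 and 238 in M2, 77.5 and 78.7 in M3, and 73.5 and 72.8 in M4. All M arrays were above E, and M1 and M2 were above M3 and M4. It rose by 3.43, 3.14, 1.67 and 1.61 in M1, M2, M3 and M4. M1 exceeded M3 by 1.76 and M4 by 1.82, and M2 exceeded them by 1.46 and 1.53. With the larger pseudocount the M3 and M4 changes were 0.66 and 0.62, and with values below 64 set to 64 they were 0.29 and 0.19, none called. The mean change was 3.95 with a pseudocount of 8 and 1.19 with the larger one, and on 5 line means its adjusted p by limma was 0.0984.

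Of the alpha subunits that pair with Itgb2 in leukocytes, those measured were near background: the highest signal on any array was 20.6 for Itgal, 11.7 for Itgam and 28.1 for Itgax. Itgad, another such subunit, had no probe set annotated with it alone. Leukocyte markers were checked beside Itgb2. Of 18 such genes 17 had a probe set and 16 were tested, of which Cd48 rose by 1.49 and Cd14 fell by 4.05. Cd48 read 1.3 and 1.7 in E and 1.4 and 2.0 in M1, but 42.1 to 169 on the arrays of M2, M3 and M4. Ptprc, the pan-leukocyte marker CD45, read 1.4 to 17.6 on the 10 arrays, and Cd3e, Cd79a, Adgre1 and Tyrobp did not exceed 26.6. Other markers read higher on the M arrays: Csf1r 60.4 to 106.7, Cd8a 20.8 to 58.1, Laptm5 29.9 to 46.5 and Spi1 24.8 to 44.9. In E they read 87.6 and 88.2, 62.3 and 74.5, 74 and 45.2, and 16.7 and 52.7. In the mean of any M line 4 of the 17 markers were over 100, namely Cd14, Cd48, Cd68 and Lyz2. Cd14 read 222.5 to 633.8 on the M arrays. The macrophage markers Cd68 and Lyz2 had changes of 0.66 (limma adjusted p = 4.05e-05) and 0.61 (0.00027), under 2-fold. Cd68 read 58.1 and 55.8 in E and 80.3 to 145 on the M arrays, without overlap. Its means in M1, M2, M3 and M4 were 91.85, 86.15, 131 and 133, and those of Lyz2 were 49.25, 80.8, 119.95 and 44.65. The part of these markers in the Itgb2 result was not tested. The summed signal of the 17 markers was 881 to 1218 on the M arrays and 8386 to 8401 on the E arrays, of which Cd14 made up 7947 or more.

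Single lines were compared with E in turn, and these comparisons share the E arrays. In M1, 2 subunits rose, as did 8.6% of all genes, and 2 fell, as did 12.5% (21.1% called). In M2, 2 rose (8.58%) and 1 fell (11.8%; 20.4% called). In M3, 2 rose (7.7%) and 3 fell (19.8%; 27.5% called). In M4, 2 rose (6.65%) and 5 fell (20.1%; 26.8% called). Itga5 and Itgb2 rose in all 4 lines, as did 4.23% of genes, and Itgb3 fell in all 4, as did 9.02%. In M4 the subunits that fell were Itga3, Itga6, Itgb1, Itgb3 and Itgb4. After quantile normalization or scaling to the hybridization controls, 3 of these, without Itga6 and Itgb1, were called.

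The second question was whether the M lines differed from each other. By the F test with a range of at least 2-fold, 6 of 10 subunits differed across the M lines, beside 22.4% of all genes: Itga3, Itga5, Itgav, Itgb1, Itgb2 and Itgb4. After quantile normalization 3 were called, namely Itga5 with a range of 1.71, Itgb2 with 1.52 and Itgb4 with 4.24. After median centring the same 6 were called, with ranges of 1.32 for Itga3, 1.12 for Itgav and 1.10 for Itgb1. After scaling to the hybridization controls Itga3 lay at the limit (1.01), and Itgav (0.98) and Itgb1 (0.77) were not called. Between M1 and M4, 6 subunits were called, all higher in M1 (8.96% of genes were called). Between M2 and M4 there were 4, all higher in M2 (6.32%), and between M3 and M4 there were 2, both higher in M3 (10.3%). M1 and M3 differed in 4 (11%), M1 and M2 in 2 (4.54%), and M2 and M3 in Itgb2 alone (7.29%). After quantile normalization the counts against M4 were 3 for M1, 2 for M2 and 1 for M3, and M1 and M3 differed in 3. The counts against M4 were 5, 3 and 2 after median centring, and 4, 2 and 1 after scaling to the hybridization controls. The array scale was lowest in M4, as the trimmed means above show.

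Where a gene had several probe sets, they were compared. Of the 23 kept, 4 rose and 5 fell, beside 17.5% of all kept probe sets called, and no gene had probe sets called in opposite directions. All 3 of Itga3 fell, with changes of -1.19, -1.34 and -1.39. For Itga5, 3 of 4 rose, by 3.27, 2.10 and 1.11, and the last changed by 0.54. For Itga6 the other probe set changed by -0.98 and for Itgb3 by -0.98, both just under 2-fold. The 5 of Itgb1 ran from -0.77 to -0.10 and the 3 of Itgav from -0.06 to 0.31, none called. Those not kept belonged to Itgav, Itgb1 and Itgb6 and did not exceed 23.4 on any array.

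**Figure D4:**
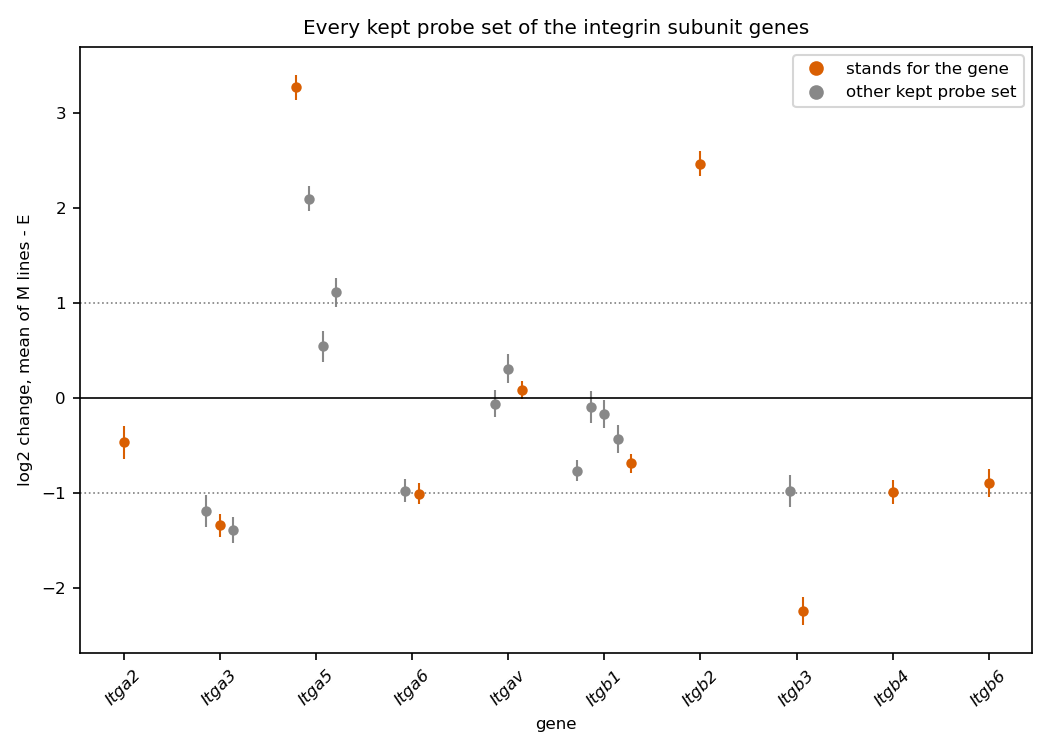
Log2 change (mean of the M lines minus E) of every kept probe set of the 10 genes, with standard errors as bars; coloured points stand for the gene in the tests and dotted lines mark 2-fold. The 4 probe sets of Itga5 all lie above 0, from 0.54 to 3.27, and the 3 of Itga3 lie together near the -1.34 of the one that stands for the gene.

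Other integrin subunits outside the 10 were examined as a list of 16, of which 14 had a probe set and 12 were tested. Of these 2 rose and 3 fell, beside 7.34% and 14.5% of all genes. Their median change was 0.17, beside -0.21 for all genes. Itgb7, the beta subunit of lymphocyte homing receptors, was at 5.8 and 6.8 in E, 449 and 431 in M1, 1327 and 914 in M2, 2147 and 2094 in M3, and 1411 and 1372 in M4. Its order among the M lines, lowest in M1, differed from that of Itga5, highest in M1. It rose by 4.88 ± 0.13 (adjusted p = 1.45e-34), a size that depends on the pseudocount (6.27 with 8 and 3.21 with the larger one), while its alpha partners had no signal over 29.0 (Itga4) or 44.6 (Itgae). Itga7, a laminin receptor of muscle, rose by 1.56 ± 0.14, from 17.1 and 18.3 in E to between 75.4 and 197 on the M arrays. With the larger pseudocount it was at 0.75, not called.

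Itga8, an RGD receptor subunit that binds nephronectin, fell by 3.34 ± 0.12. It was at 5782 and 5065 in E and between 221 and 1967 on the M arrays, with changes of -4.41, -1.64, -3.68 and -3.62 in M1 to M4. Its ligand gene Npnt fell by 1.94. Itga1, a collagen receptor subunit, fell by 1.78 ± 0.16, from 94.7 and 81.5 in E to at most 9.0 in the M lines, and with the larger pseudocount was at -0.72, not called. Itgb5, a partner of Itgav, fell by 1.15 ± 0.12, near the 2-fold limit: it was -0.81 after quantile normalization and -0.95 without line M4, not called.

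The ligands were grouped by the receptor they bind. Of the genes named besides the 10 subunits, 15 had an E mean under 64, near background, and others had such a mean in an M line, so that the sizes of their changes also depend on the pseudocount. Of 10 genes for collagen-binding integrins 8 rose and 2 fell (7.34% and 14.5% of all genes), with a median change of 3.42. The fibrillar collagens Col5a2, Col3a1 and Col1a2 rose by 5.66, 4.48 and 4.15, and the basement membrane collagens Col4a1 and Col4a2 changed by -5.93 and -5.15. The lines differed widely for Col1a2, with changes of 7.26, 1.59, 0.98 and 6.76 in M1, M2, M3 and M4, and on 5 line means limma's adjusted p was 0.364. The collagen receptor genes Itga2 and Itga1 were at or below 27.8 on every M array. Itga10, another collagen receptor subunit, read 78.5 and 44.6 in M2 against 18.8 and 11.4 in E. Its mean change of 0.18 was not called, but M2 exceeded M3 by 1.06 and M4 by 1.29, both called. Itga11, also on the list of other subunits, had no probe set annotated with it alone.

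Of 9 laminin genes tested, 4 fell (14.5% of all genes) and the other 5 were not called, with a median of -0.50. Lamb3, a chain of the laminin that hemidesmosomes bind, changed by -3.36, Lama4 by -2.22 and Lama5 by -1.40. Lama5 was not called after quantile normalization (-0.97). Of the laminin receptor genes, Itga3 and Itga6 fell in the same comparison, Itga6 on the deposited scaling alone. Itga7 rose by 1.56, and Itgb4 and Itgb1 were not called.

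Of 15 ligands of RGD-binding integrins 4 rose and 5 fell (7.34% and 14.5% of all genes), with a median of 0.36. Ccn3, a matricellular protein, rose by 3.97, Tgfb1, whose latent form binds Itgav integrins, by 2.58 (0.98 as the mean of its probe sets, not called), and Fn1, the fibronectin bound by Itga5 with Itgb1, by 2.36. Fn1 was at 972 and 790.3 in E and between 3115 and 7056 on the M arrays. Tgfb3 changed by -3.64 and Ccn2 by -3.11. Fn1 and Itga5 thus rose in the same comparison, both without overlap of E and M arrays.

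Of 8 ligands of leukocyte integrins 2 rose and 1 fell (7.34% and 14.5% of all genes), with a median of 0.21. Vcam1, which is bound by Itga4 integrins, rose by 6.04 ± 0.12 (adjusted p = 4.85e-40), from 1.4 and 1.0 in E to between 1139 and 3007. With E near background, the change was 7.87 with a pseudocount of 8 and 4.15 with the larger one. Icam1, the ligand of Itgb2 integrins, rose by 1.67, with changes of 3.08 in M2 and 3.67 in M3 but -0.14 in M1 and 0.09 in M4. It was at 0.95 with the larger pseudocount, not called. F11r, a tight junction adhesion molecule, fell by 3.89.

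Of 32 linkers and focal adhesion proteins 6 rose and 5 fell (7.34% and 14.5% of all genes), with a median of -0.08. Parvb (beta-parvin), an actin-binding partner of integrin-linked kinase, rose by 3.58, Tns2, a tensin, by 2.06, and Lims2, a PINCH adaptor of the same complex, by 1.88 (0.92 with the larger pseudocount, not called). Ptk2b, the kinase Pyk2, changed by -1.72, Actn4, an actin crosslinker, by -1.66, and Arhgef7, an exchange factor for Rac, by -1.41. Of 10 hemidesmosome proteins and tetraspanins 1 rose and 1 fell (7.34% and 14.5% of all genes), with a median of -0.05. Plec, the plectin that links Itgb4 to keratins, rose by 1.28, from 2.31 in M1 to 0.29 in M3, and Cd82, a tetraspanin, fell by 1.94. Plec was at 0.94 without line M1, and as means of their probe sets Plec was at 0.76 and Cd82 at -0.92, none of them called.

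**Figure D5:**
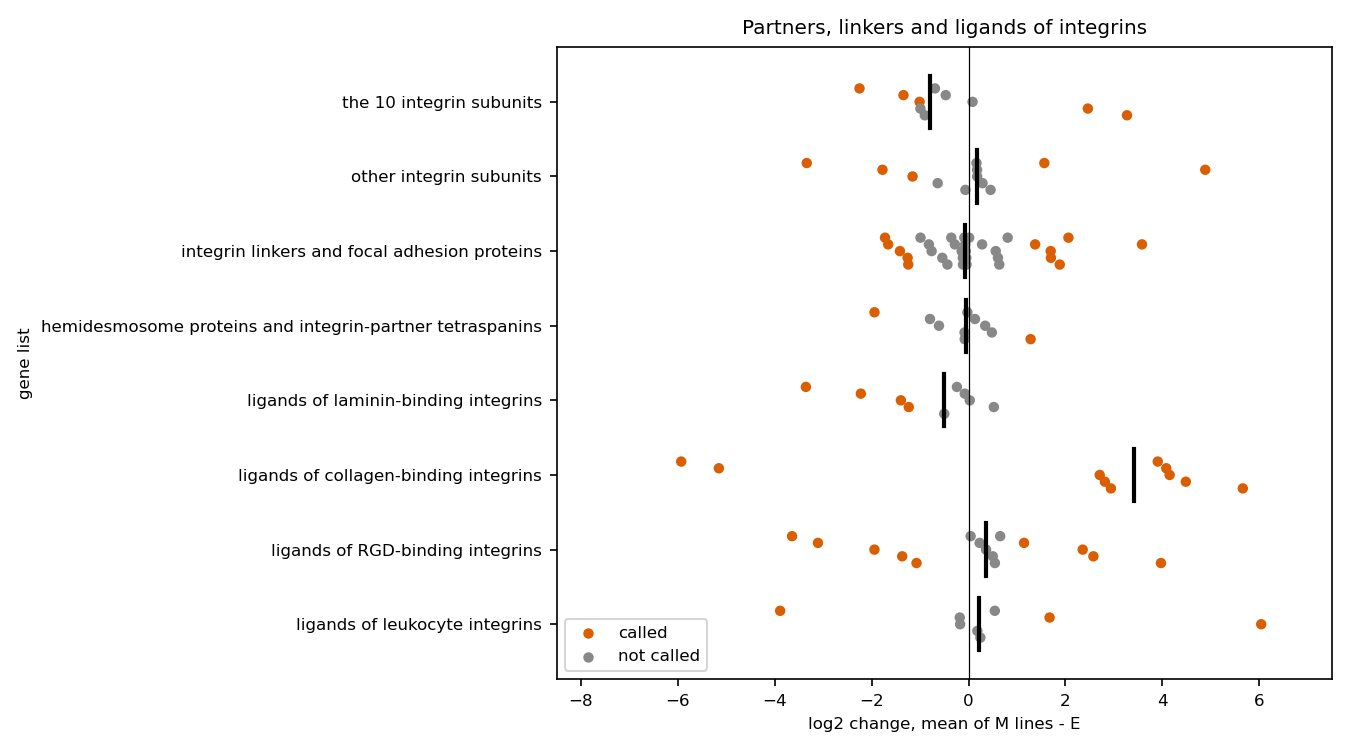
Log2 change (mean of the M lines minus E) of each tested gene of the 10 subunits and of the lists of other subunits, linkers and ligands (rows); coloured points were called, grey points were not, and vertical bars are list medians. Collagen genes lie apart from 0 on both sides, with a median of 3.42, while the median of the linkers is -0.08.

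For the subunit with the largest rise, the largest fall and the widest range across M lines, the genes with the nearest profile over the 5 line means were taken, by root mean square distance on the log2 scale after centring. Nearest to Itga5 were Bnc2 (0.259), G0s2 (0.286) and Fbln2 (0.320). Nearest to Itgb3 were Aatk (0.119), Tbx2 (0.140) and Bche (0.142). Nearest to Itgb4 were Agmo (0.633), Clcn3 (0.647) and Cx3cl1 (0.702), at larger distances. Agmo was at 90.3 in E and at 64.2, 397, 403 and 4.95 in M1 to M4, so that it shared with Itgb4 the low M4 and high M3 values. These distances are over 5 points and are given without a test.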

How the data were processed

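Biotin-labelled cRNA was measured on 10 arrays, 2 for each of 5 lines. The authors deposited probe set intensities on a linear scale, and GCOS 1.3 is named in the submitters' processing notes. The signal algorithm, the scaling and any correction for background are not given in the labels or notes, and detection calls stayed unused. All columns were mapped to samples by their labels. Gene symbols came from the platform's probe table, and 34945 probe sets had a single symbol.

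The deposited scaling was kept, 64 control probe sets were left out, 32 was added and log2 taken. A probe set was kept when at least 2 arrays had it over their 40th percentile (32978), and the one with the highest mean signal stood for its gene (14840). limma 3.58.1 in R 4.3.3 fitted 1 mean per line (lmFit, eBayes with trend; 5 residual degrees of freedom), which was tested on simulated data. The number of arrays limits the precision. Alternatives changed the scaling, pseudocount, filter, probe sets, block, arrays and lines.

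The members and lists were chosen with earlier results of these data known. Named besides the 10 members were other integrin subunits called in the mean comparison, up to 3 called genes with the largest rise and 3 with the largest fall from each other list, and 3 genes with the nearest profiles to each of 3 members. Subunits that pair with these, and the markers, are given as levels, some of them with test results. They were picked after their values were seen. Promoter windows are RefSeq's (GRCm38.p6).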

Additional observations from a re-analysis of the deposited data

Results flagged for a closer look

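In 6 subunits the change against E differed between M lines by limma's test of the difference, with an adjusted p under 0.05 over all genes and at least 2-fold. The largest such difference of each was 4.23 for Itgb4 (M3 above M4), 2.03 for Itga5 (M1 above M3), 1.82 for Itgb2 (M1 above M4), 1.41 for Itga3 (M1 above M4), 1.20 for Itgb1 (M1 above M4) and 1.18 for Itgav (M2 above M4). The differences of Itga3, Itgb1 and Itgav were under 2-fold after quantile normalization.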

How the results depend on the processing

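Among the 10 subunits, the count that rose in the mean comparison was 2 and went to 1 on 5 line means. The count that fell was 3, and went to 1 after quantile normalization, 5 with a pseudocount of 8, and 1 on line means; leaving out an array gave 2 to 4. With a pseudocount of 8, 4 fell in M1 and 2 in M2, and leaving out an array gave 1 to 2 in M2. With a pseudocount 4-fold larger than 32, and with values below 64 set to 64, 1 rose in M3 and 1 in M4. After quantile normalization or scaling to the hybridization controls 3 fell in M4, and after quantile normalization 3 differed across M lines. With the replicate number as a block (replicate block), 2 rose, 3 fell and 6 differed across the M lines, and no count moved. Deviations of equally numbered arrays correlated over genes at -0.07 to 0.06 between lines, so no shared gene pattern of the replicate number was seen. Such a correlation cannot show a shift common to all genes. Trimmed means of replicates 1 and 2 were 299 and 264 in E, 252 and 249 in M1, and 272 and 214 in M2. They were 200 and 198 in M3, and 181 and 190 in M4. Whether arrays were paired by culture or day cannot be settled from this.

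For the lists, that larger pseudocount left 1 other integrin, 3 linkers and 1 leukocyte-integrin ligand rising, and the setting of values below 64 to 64 left 1 other integrin. Quantile normalization left 3 linkers and 2 laminins falling. With the mean of the probe sets, 0 hemidesmosome or tetraspanin genes rose and 0 fell by limma, and 2 RGD ligands rose; without line M1, 0 genes of the first list rose. On 5 line means, those rising were 1 other integrin, 0 hemidesmosome genes, 2 collagens and 1 leukocyte-integrin ligand, and those falling were 1 other integrin, 1 linker, 1 laminin, 2 RGD ligands and 0 leukocyte-integrin ligands. Causes were not tested.

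Itgav, not called, turned to -0.054 without E replicate 2 (the range over arrays left out was -0.054 to 0.221), -0.030 without line M2 and -0.012 without line M3. Agmo turned to -0.075 without line M2 and -0.084 without line M3, and Cx3cl1 to 0.077 without line M4. Signals near background limit the sizes for Itga2, Itga5, Itgb2, Itgb3, Itgb6 and for other named genes such as Itgb7 and Vcam1. With values below 64 set to 64, Itga2 and Itgb6 gave no value.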

Other observations

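Itgbl1, a secreted protein whose repeats resemble those of beta integrins but which is not a subunit, was looked at after its values were seen. It read 1.7 and 6.1 on the E arrays and between 373 and 2591 on the M arrays, a change of 4.91 ± 0.13 by limma whose size depends on the pseudocount. The means of M1, M2, M3 and M4 were 919, 2298, 1397 and 395.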
